A study of Homo sapiens with 4 samples.

Results

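The 10 genes described here encode ligands that a tumour cell shows to natural killer (NK) cells and T cells. They were chosen by name from the deposited gene table and are NCR3LG1, MICA, MICB, ULBP1, ULBP2, ULBP3, PVR, CD274, PDCD1LG2 and CD276. All 10 were found, each once, among 58735 genes. RNA was sequenced from cultured human cells, labelled as a line of lung squamous cell carcinoma, in 2 libraries named 30 Gy and 2 named 0 Gy (Gy is gray, the dose of radiation absorbed). The design text speaks of SK-MES-1 and of SK-MES-1-RR, a derivative resistant to radiotherapy, but no label ties a library to either line or tells how the 30 Gy were given and when RNA was taken. The groups therefore carry the names of the doses, and a difference between them cannot be told apart from one between lines. Nothing says that the replicates were separate cultures, so the spread behind each p-value is that of these libraries and may be technical. In bulk RNA of this kind, fewer cells that express a gene and less of its RNA per cell cannot be told apart.

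NK cells read a balance of signals from the surface of the cell they meet. NKG2D is an activating receptor that binds MICA, MICB and the ULBP proteins, which are distant relatives of HLA class I and are known to appear on stressed or damaged cells. NKp30 is another activating receptor, and the protein made from NCR3LG1, B7-H6, is its ligand on tumour cells. PVR (CD155) can activate lymphocytes through DNAM-1 or restrain them through TIGIT and CD96. CD274 (PD-L1) and PDCD1LG2 (PD-L2) bind PD-1 and restrain T cells, and CD276 (B7-H3) is a further member of the B7 family.

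Several members have close relatives in the genome, which bears on how reads were shared out between genes. The coding sequences of MICA and MICB were 92.0% identical over 992 aligned bases, and those of ULBP2 and its relative RAET1L 96.8% over 741 (GENCODE release 29, longest complete coding sequence of each). The first 90 coding bases are shown for each pair to let the relatives be compared, with the bases that differ within the pair in capitals. There are 13 such bases between MICA and MICB and 14 between ULBP2 and RAET1L.
MICA: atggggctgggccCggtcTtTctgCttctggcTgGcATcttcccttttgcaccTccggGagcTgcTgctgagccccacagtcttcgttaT
MICB: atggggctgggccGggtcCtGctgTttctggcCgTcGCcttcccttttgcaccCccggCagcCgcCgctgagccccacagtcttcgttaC
ULBP2: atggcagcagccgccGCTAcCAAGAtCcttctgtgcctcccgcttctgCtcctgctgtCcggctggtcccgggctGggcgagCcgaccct
RAET1L: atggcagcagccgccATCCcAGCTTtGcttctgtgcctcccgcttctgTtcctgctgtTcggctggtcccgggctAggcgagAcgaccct

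Despite this, few 50-base stretches of MICA or MICB transcripts recurred in transcripts of another gene, 2.64% and 2.94%. The share was 32.2% for ULBP2, nearly all of it with RAET1L (29.4%), so reads of ULBP2 are the most uncertain of the members. ULBP2 shared 11.6% with RAET1G, in part the same stretches. The share was 12.4% for ULBP3 and 6.85% for ULBP1, in each case with RAET1K, and 0 for NCR3LG1, CD274 and PDCD1LG2. ULBP3 also shared 6.5% of its stretches with ULBP1, and ULBP1 1.97% of its own with ULBP3. How the authors treated reads that match several genes is not given in the sources used here. RAET1L and RAET1K had fewer reads than the ULBP genes they resemble, counts that may themselves depend on that treatment. RAET1K had 12 and 23 reads at 30 Gy and 21 and 23 at 0 Gy. ULBP3 had 60 and 51 at 30 Gy and 49 and 84 at 0 Gy. ULBP1 had 86 and 114 at 30 Gy and 215 and 192 at 0 Gy. RAET1L had 8 and 7 reads at 30 Gy and 1 and 7 at 0 Gy, against 181 and 186 at 30 Gy and 137 and 178 at 0 Gy for ULBP2. RAET1G had 7 and 24 reads at 30 Gy and 4 and 9 at 0 Gy.

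MICA and MICB also share a stretch of promoter, shown here because both genes had higher values at 30 Gy, although MICA did not pass the test. The 120 bases below are from RefSeq on GRCh38.p14, plus strand, chr6:31403404-31403523 for MICA and chr6:31497950-31498069 for MICB, and 107 of them are identical. The capitals mark a match to the core of the heat shock element, GAANNTTC, which reads the same on both strands and is the letter pattern that heat shock factors such as HSF1 bind.
MICA: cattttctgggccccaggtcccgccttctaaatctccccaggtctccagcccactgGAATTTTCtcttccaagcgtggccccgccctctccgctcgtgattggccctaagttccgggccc
MICB: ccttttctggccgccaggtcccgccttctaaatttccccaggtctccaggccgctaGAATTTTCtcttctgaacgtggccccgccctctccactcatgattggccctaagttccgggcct

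The match begins 135 bases before the RefSeq start of MICA and 139 before that of MICB, starts that lie downstream of the first base of each gene in the deposited table, whose spans are given further on. Promoter windows of 300 bases were at hand for 9 members, and 2 of these, MICA and MICB, held the pattern. Both matches lie in the shared stretch, so they are not independent of each other. Of 34796 windows of distinct sequence over all genes, 6.79% held it. The interferon-gamma activated site, TTCNNNGAA on either strand, was found in 1 of the 9, CD274, and in 7.67% of all windows. These are matches of letters and not evidence of binding. HSF1 itself had 32.7 and 30.6 FPKM (fragments per kilobase of gene, scaled to the library's total) at 30 Gy and 25.9 and 27.7 at 0 Gy, a difference that did not pass the test described next (limma, adjusted p = 0.0776).

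Changes are log2 differences of FPKM + 1, 30 Gy minus 0 Gy, from limma fitted over 13379 genes with at least 1 FPKM in at least 2 libraries. P-values are two-sided with Benjamini-Hochberg adjustment over all of these genes, and a call is an adjusted p under 0.05. Fold values are ratios of mean FPKM. All 10 members had at least 1 FPKM in all 4 libraries, on 49 to 2722 reads per member and library, where the libraries hold 15920861 to 17261121 recovered reads. Of the 10, 1 rose (MICB), 2 fell (NCR3LG1 and ULBP1) and 7 did not pass, while over all tested genes 19.8% were called, 10.8% higher and 9.06% lower. The groups did not overlap for 8 members, and for 65.2% of all tested genes. The members' median change was 0.12, beside -0.000677 over all tested genes. A count of 3 calls in 10 is near what the whole table gives, so the members are described one by one.

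**Figure D1:**
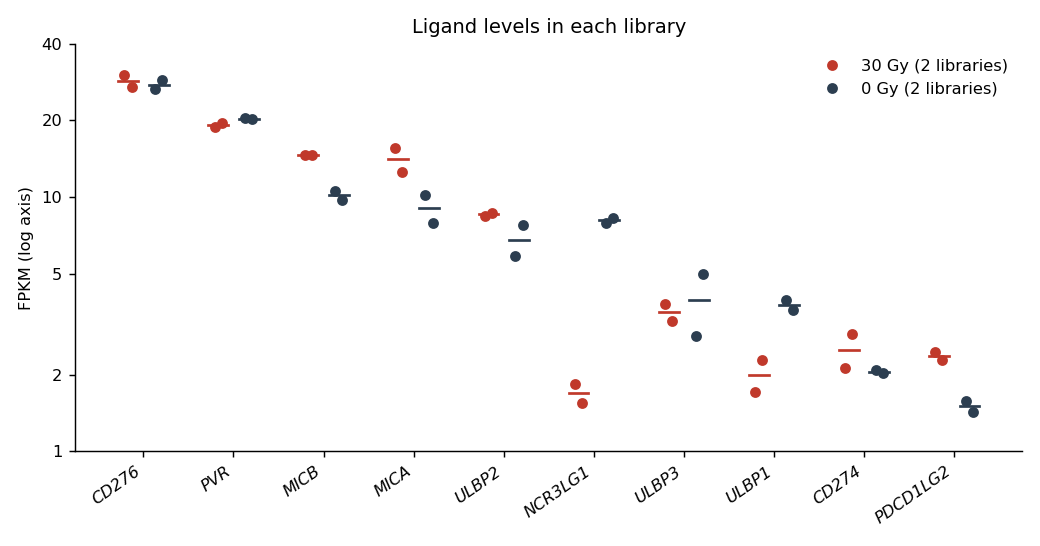
FPKM of each ligand gene on a log axis, with 1 point per library and a bar at the mean of each dose, 30 Gy left of 0 Gy, genes ordered by their mean over the 4 libraries. NCR3LG1 shows the widest gap, 1.84 and 1.55 FPKM at 30 Gy below 7.93 and 8.29 at 0 Gy, while CD276 and PVR are the highest at either dose.

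NCR3LG1 (ENSG00000188211, chr11:17351726-17377341, plus strand, hg38), the NKp30 ligand gene, had 1.84 and 1.55 FPKM at 30 Gy and 7.93 and 8.29 FPKM at 0 Gy. Those values rest on 189 and 159 reads at 30 Gy and 888 and 907 at 0 Gy. The groups lie far apart and the replicates close together, with 30 Gy averaging 1.70 ± 0.203 FPKM and 0 Gy 8.11 ± 0.256 (SD, n = 2 each), 4.78-fold lower at 30 Gy. Its log2 change was -1.76 ± 0.09 (SE; limma, adjusted p = 0.00179), which places it 26th of 13379 from the largest fall. Its share of the summed FPKM of the 10 members was 1.84% and 1.64% at 30 Gy, against 8.62% and 8.74% at 0 Gy. Without the first or the second 30 Gy library the change was -1.83 or -1.68. With the first or the second 0 Gy library left out it was -1.79 or -1.73. Each of those fits leaves a lone library in its group, assumed to vary like the others, and so cannot decide a call.

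The fall of NCR3LG1 was shared by the genes around it. Of 13 other tested genes within 1 Mb, 12 fell and 0 rose, with a median change of -1.17, and the remaining one, the pseudogene AC116533.1, stood at -0.39 without passing. Among those that fell, the pseudogene OR7E14P had 0.658 and 0.973 FPKM at 30 Gy and 2.6 and 1.95 at 0 Gy. It passed the filter through the 0 Gy libraries alone. The small nucleolar RNA gene SNORD14A lies within RPS13, and OR7E14P and AC116533.1 overlap PLEKHA7. The genes counted are therefore not all independent of each other. NUCB2, a calcium-binding protein gene that ends 1.75 kb away, had 10.4 and 12.5 FPKM at 30 Gy and 26.8 and 27.2 at 0 Gy. PIK3C2A, a class II PI3-kinase, had 7.49 and 7.64 FPKM at 30 Gy and 15.5 and 16.4 at 0 Gy. Neither gene's groups overlap (limma, adjusted p = 0.00432 and 0.00280). RPS13, a ribosomal protein gene, changed by -1.22 and the antisense RNA AC124798.1 by -1.37 (limma, adjusted p = 0.0140 and 0.00601). The changes of the 13 genes run from -1.49 for SNORD14A to -0.39 for AC116533.1. That of SNORD14A rests on 6 and 4 reads at 30 Gy and 24 and 13 at 0 Gy. The change of NCR3LG1 is the most negative in the window, and whether it differs from its neighbours' was not tested. What part the neighbourhood has in the fall of NCR3LG1 was not tested.

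**Figure D2:**
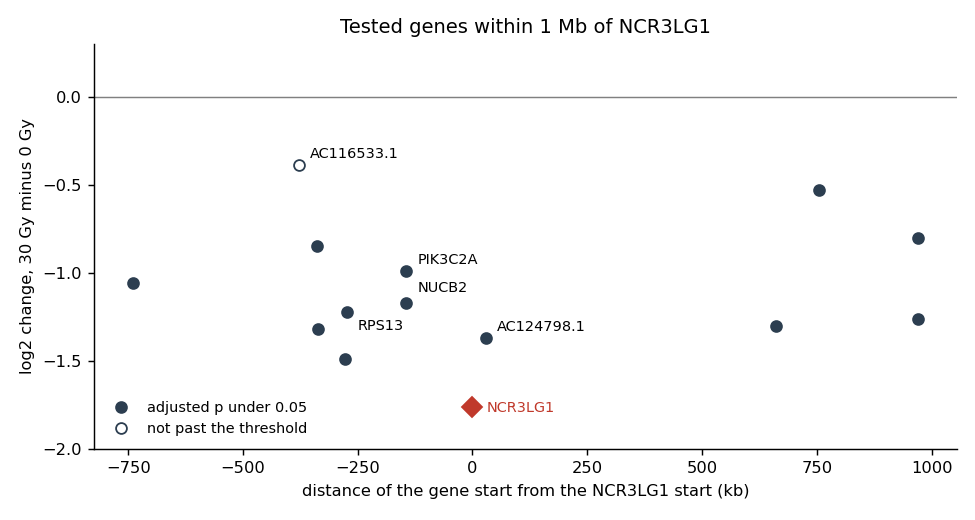
Log2 change (30 Gy minus 0 Gy) of the 13 other tested genes within 1 Mb of NCR3LG1 (circles, filled where called) and of NCR3LG1 (diamond), against the distance between gene starts in kb. All lie below 0, from -0.39 for AC116533.1 to -1.76 for NCR3LG1.

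The other members did not lie in such neighbourhoods. Around MICB (54 tested genes) 10 rose and 2 fell with a median change of 0.08. Among those that rose, RF00019, a 111-base RNA, had 7 and 5 reads at 30 Gy and 1 and 0 at 0 Gy. It passed the filter through the 30 Gy libraries alone, with 3.95 and 2.83 FPKM there and 0.518 and 0 at 0 Gy. Around ULBP1 (18 genes) 1 rose and 1 fell with a median of -0.01. Around CD274 and PDCD1LG2, which lie side by side on chromosome 9, 2 of 15 rose and 1 fell with a median of 0.05. Around PVR 3 of 43 and around CD276 3 of 16 rose, and 0 fell. In the HLA region near MICB, TCF19 rose 1.93-fold, CLIC1, a chloride channel protein, 1.35-fold and VARS, a valyl-tRNA synthetase, 1.34-fold, while the lysosomal sialidase NEU1 fell 1.30-fold (limma, adjusted p = 0.0174, 0.0223, 0.0160 and 0.0276). Near the ULBP genes PCMT1, a protein repair methyltransferase, rose 1.22-fold and MTHFD1L, of mitochondrial folate metabolism, fell 1.22-fold (limma, adjusted p = 0.0334 and 0.0355).

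Among the NKG2D ligands, MICB (ENSG00000204516, chr6:31494881-31511124, plus strand) rose. It had 14.6 and 14.6 FPKM at 30 Gy and 10.6 and 9.76 FPKM at 0 Gy. Both 30 Gy libraries stood above both 0 Gy libraries, with 30 Gy averaging 14.6 ± 0.0116 FPKM and 0 Gy 10.2 ± 0.609 (SD, n = 2 each), 1.43-fold higher. The log2 change was 0.48 ± 0.07 (SE; limma, adjusted p = 0.0152). The call did not survive the loss of either 30 Gy library. The fits with a library of either dose left out cannot decide it, for the reason given for NCR3LG1. The change kept to 0.42 to 0.53 when single libraries were left out. The call was also lost when every gene above 0 was tested (limma, adjusted p = 0.0593).

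MICA (ENSG00000204520, chr6:31399784-31415315, plus strand), the closest relative of MICB, had 15.6 and 12.5 FPKM at 30 Gy and 10.2 and 7.89 FPKM at 0 Gy. The groups did not overlap, though the libraries of each dose differed by more than counting error. The exact 95% Poisson intervals were 14.4 to 17 and 11.4 to 13.7 FPKM at 30 Gy and 9.24 to 11.2 and 7.05 to 8.80 at 0 Gy; all such intervals cover counting error only. At 1.56-fold by the ratio of means, with a log2 change of 0.59 ± 0.15 (SE; 95% interval 0.19 to 0.99), it did not pass the test (limma, adjusted p = 0.0578). It did with a filter at FPKM 5 (limma, adjusted p = 0.0219) and with limma's voom on the recovered reads (adjusted p = 0.00372), where voom called 31.6% of all genes. Whether MICA and MICB differ in response was not tested. MICB made up 48.2% and 53.8% of their summed FPKM at 30 Gy and 51.0% and 55.3% at 0 Gy, so these shares overlap. HCP5, a noncoding RNA gene that overlaps MICA on the same strand, had 31 and 29 reads at 30 Gy and 25 and 37 at 0 Gy, far below the 596 and 475 at 30 Gy and 423 and 320 at 0 Gy of MICA.

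ULBP1 (ENSG00000111981, chr6:149964007-149973710, plus strand), an NKG2D ligand held in the membrane by a lipid anchor, fell. It had 1.71 and 2.28 FPKM at 30 Gy and 3.93 and 3.59 FPKM at 0 Gy. Both 30 Gy libraries were below both 0 Gy libraries, with 30 Gy averaging 2.00 ± 0.4 FPKM and 0 Gy 3.76 ± 0.238 (SD, n = 2 each), 1.88-fold lower. The log2 change was -0.67 ± 0.13 (SE; limma, adjusted p = 0.0270). The call was lost without the first 30 Gy library and kept without the second, with changes of -0.54 and -0.81. Without the first or second 0 Gy library the change was -0.62 or -0.72. The fits with a library of either dose left out cannot decide the call, for the reason given for NCR3LG1. Testing every gene above 0 also ended the call (limma, adjusted p = 0.119).

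The neighbours of ULBP1 did not show a like fall. ULBP2 (chr6:149942000-149949235, plus strand), whose gene ends 14.8 kb from the start of ULBP1, had 8.40 and 8.67 FPKM at 30 Gy and 5.84 and 7.76 FPKM at 0 Gy. Its groups did not overlap, yet the first 0 Gy library stood well below the second, and the change of 0.30 (95% interval -0.04 to 0.64) did not pass (limma, adjusted p = 0.168). ULBP3 (chr6:150063150-150069095, minus strand) had 3.80 and 3.24 FPKM at 30 Gy and 2.85 and 5 FPKM at 0 Gy, so its groups overlapped, with a change of -0.09 (95% interval -0.67 to 0.49; limma, adjusted p = 0.806). The 0 Gy libraries of ULBP3 rest on 49 and 84 reads, and their 95% Poisson intervals, 2.11 to 3.77 and 3.99 to 6.19 FPKM, do not meet. Within the 5 NKG2D ligands, ULBP1 made up 3.88% and 5.53% of the summed FPKM at 30 Gy and 11.8% and 10.6% at 0 Gy. That sum was 44.1 and 41.3 FPKM at 30 Gy and 33.4 and 34.0 at 0 Gy, and MICA with MICB gave 30.2 and 27.1 of it at 30 Gy and 20.8 and 17.6 at 0 Gy. The 3 further NKG2D ligand genes, RAET1E, RAET1G and RAET1L, were below the filter, and their FPKM summed to 1.06 and 1.59 at 30 Gy and 0.389 and 1.03 at 0 Gy.

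**Figure D3:**
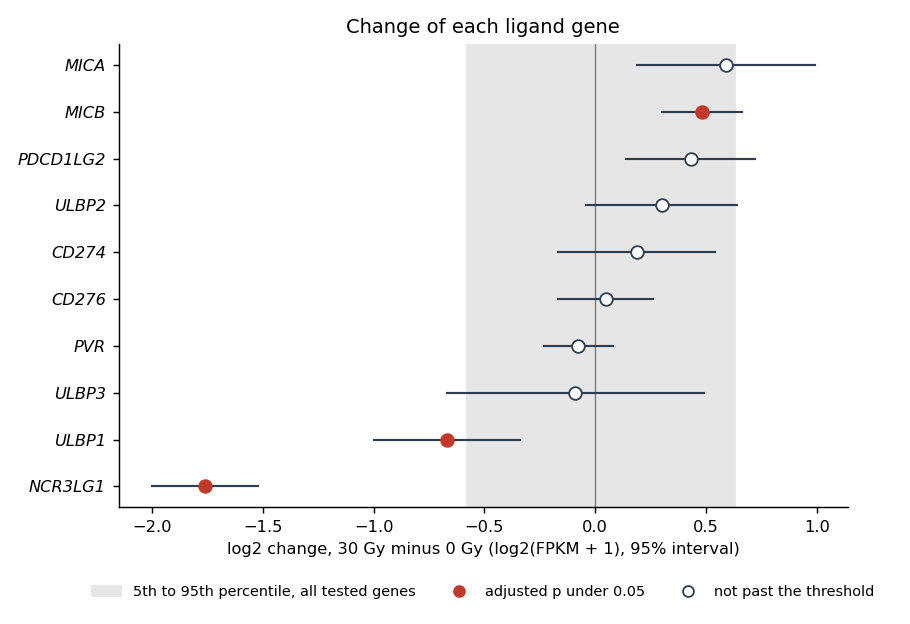
Log2 change of each ligand gene (30 Gy minus 0 Gy, on log2 of FPKM + 1) with its 95% interval from limma, filled where the adjusted p is under 0.05, over the band from the 5th to the 95th percentile of all tested genes (-0.58 to 0.63). NCR3LG1 and ULBP1 lie below the band, and the intervals of ULBP2, ULBP3, PVR, CD274 and CD276 include 0.

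PVR (ENSG00000073008, chr19:44643798-44663583, plus strand) had 18.8 and 19.5 FPKM at 30 Gy and 20.4 and 20.2 FPKM at 0 Gy. The groups lay close together without overlapping. The change of -0.08 had a 95% interval of -0.23 to 0.08 on the log2 scale and did not pass (limma, adjusted p = 0.401). AC243964.2, an antisense gene that spans PVR, had 18 and 14 reads at 30 Gy and 14 and 11 at 0 Gy, against 1057 and 1094 at 30 Gy and 1248 and 1210 at 0 Gy for PVR; whether reads were counted by strand is not given in the sources used here. Of 5 tested nectins and nectin-like relatives, CADM1, a ligand of the lymphocyte receptor CRTAM, rose and 0 fell. It had 1.32 and 1.06 FPKM at 30 Gy and 0.151 and 0.214 at 0 Gy, a log2 change of 0.89 (limma, adjusted p = 0.0329), and it passed the filter through the 30 Gy libraries alone. NECTIN2, which shares the receptors DNAM-1 and TIGIT with PVR, stood at 15.5 and 14.6 FPKM at 30 Gy and 15.0 and 13.6 at 0 Gy (limma, adjusted p = 0.545).

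The PD-1 ligands were the least expressed members at 0 Gy. CD274 (ENSG00000120217, chr9:5450503-5470566, plus strand) had 2.13 and 2.88 FPKM at 30 Gy and 2.08 and 2.03 FPKM at 0 Gy. The first 30 Gy library stood level with the 0 Gy libraries and the second above them, and the change of 0.19 (95% interval -0.17 to 0.54) did not pass (limma, adjusted p = 0.376). PDCD1LG2 (ENSG00000197646, chr9:5510570-5571254, plus strand) had 2.46 and 2.29 FPKM at 30 Gy and 1.58 and 1.42 FPKM at 0 Gy. Its groups did not overlap and the ratio of means was 1.58, but at 93 and 86 reads at 30 Gy and 65 and 57 at 0 Gy it did not pass (limma, adjusted p = 0.0566; log2 change 0.43, 95% interval 0.14 to 0.72). Its adjusted p was 0.0365 with limma's eBayes without a trend and 0.0495 with the robust form, and 0.0812 with voom. PDCD1LG2 gave 53.6% and 44.3% of the summed FPKM of the PD-1 ligands at 30 Gy and 43.1% and 41.1% at 0 Gy.

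CD276 (ENSG00000103855, chr15:73683966-73714518, plus strand) was the most abundant member. It had 30.3 and 27 FPKM at 30 Gy and 26.5 and 28.9 FPKM at 0 Gy. The groups overlapped, and the change of 0.05 had a 95% interval of -0.17 to 0.26 (limma, adjusted p = 0.732). Of 13 other B7 and butyrophilin genes 5 were tested and 0 were called (limma, with BTN2A1 and BTN3A1, which take part in gamma-delta T cell recognition, at adjusted p = 0.0678 and 0.104). CD80, HHLA2 and BTN1A1 were listed at 0 in the 4 libraries.

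In order of level per length at 30 Gy, CD276 (28.7 FPKM) stood above PVR (19.2), then MICB (14.6) and MICA (14.1), which overlapped, then ULBP2 (8.54), ULBP3 (3.52), CD274 (2.51) and PDCD1LG2 (2.37), of which the last pair overlapped, and last ULBP1 (2.00) and NCR3LG1 (1.70), which overlapped too. CD274 also overlapped with ULBP1. At 0 Gy the order began with the same genes, CD276 (27.7), PVR (20.3), MICB (10.2) and MICA (9.04), of which the last pair overlapped, and NCR3LG1 (8.11) came next, overlapping with MICA. ULBP2 (6.80), ULBP3 (3.93), ULBP1 (3.76), CD274 (2.06) and PDCD1LG2 (1.5) followed, where ULBP3 and ULBP1 overlapped. NCR3LG1 was thus 10th at 30 Gy and 5th at 0 Gy.

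The genes most like each called member were those whose 4 log2 values, each less the gene's mean, lay nearest among 11124 other protein-coding genes. Near NCR3LG1 lay the stress cytokine GDF15 and RAP1GAP, at distances of 0.134 and 0.194. For GDF15 the 30 Gy mean was 25.5 ± 3.06 FPKM and the 0 Gy mean 93 ± 3.61 (SD, n = 2 each). Nearest to MICB were JHY, PANK2, a pantothenate kinase, and COPS7A, a COP9 signalosome subunit, at 0.0163, 0.0175 and 0.0251. Nearest to ULBP1 were NDUFAF4, an assembly factor of respiratory complex I, TAF4B and ZNF330, at 0.0572, 0.0622 and 0.0668. With 4 libraries in 2 groups, likeness of this kind mostly reflects a change of like size.

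Lists of genes around the ligands were read off the same fit. Over 12 lists with 111 genes, 70 were tested, of which 12 rose and 6 fell, 25.7% beside 19.8% of all tested genes, with a median change of 0.16. Among 4 tested other ligands of natural cytotoxicity receptors, LGALS3, galectin-3, which can bind NKp30 and block it, fell, and NID1, a basement membrane protein that binds NKp44, rose. LGALS3 had 49.3 and 47.3 FPKM at 30 Gy and 99.9 and 88.9 at 0 Gy, 1.95-fold lower (limma, adjusted p = 0.00423), and NID1 stood 1.35-fold higher (limma, adjusted p = 0.0266). BAG6, a further NKp30 ligand, had 51.1 and 44.7 FPKM at 30 Gy and 40 and 42.3 at 0 Gy and did not pass (limma, adjusted p = 0.141).

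Among 5 tested checkpoint and inhibitory molecules outside the B7 family, NT5E rose and TNFRSF14 fell. NT5E (CD73), the surface enzyme that makes immunosuppressive adenosine from AMP, had 69.5 and 71.8 FPKM at 30 Gy and 27.3 and 28.0 at 0 Gy. Its change was 1.32 ± 0.06 (SE, log2 of FPKM + 1; limma, adjusted p = 0.00122), 2.56-fold by the ratio of means. TNFRSF14 (HVEM), a ligand of BTLA, had 1.41 and 1.30 FPKM at 30 Gy and 3.12 and 2.82 at 0 Gy (limma, adjusted p = 0.0149). CD47, the macrophage checkpoint ligand, had 8.64 and 9.32 FPKM at 30 Gy and 8.30 and 8.01 at 0 Gy, and its change of 0.12 did not pass (limma, adjusted p = 0.279).

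HLA class I ligands of inhibitory NK receptors were abundant and 0 of 5 tested genes were called. HLA-C had 152 and 145 FPKM at 30 Gy and 151 and 137 at 0 Gy (limma, adjusted p = 0.670). HLA genes share sequence with one another, so the split of reads among them is uncertain. Their list had a median change of -0.02. HLA-G was listed at 0 in the 4 libraries.

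Of 5 tested adhesion and costimulatory ligands 2 rose and 1 fell. CD70, a ligand of CD27, had 5.93 and 4.72 FPKM at 30 Gy and 2.48 and 2.19 at 0 Gy, 2.28-fold higher (limma, adjusted p = 0.0127). CLEC2B (AICL), the ligand of the activating NK receptor NKp80, had 7.53 and 8.08 FPKM at 30 Gy and 4.81 and 4.84 at 0 Gy (limma, adjusted p = 0.0105). ICAM1, which binds the lymphocyte integrin LFA-1, had 9.35 and 8.70 FPKM at 30 Gy and 12.8 and 14.6 at 0 Gy, 1.52-fold lower (limma, adjusted p = 0.0189).

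Of 9 tested shedding proteases and surface carriers 3 rose and 1 fell. MMP14, a membrane metalloprotease able to cleave MICA from the surface, had 81.1 and 75.2 FPKM at 30 Gy and 49.7 and 47.7 at 0 Gy (1.60-fold; limma, adjusted p = 0.00633), and MMP2 rose 1.58-fold (limma, adjusted p = 0.00756). ADAM10 and ADAM17, which also release NKG2D ligands, did not pass, with changes of 0.26 and -0.32 (limma, adjusted p = 0.0933 and 0.0514). CMTM6 and CMTM4 are carriers that keep the CD274 protein at the surface. CMTM4 had 15.3 and 16.3 FPKM at 30 Gy and 20.5 and 22.9 at 0 Gy (limma, adjusted p = 0.0264), while CMTM6 changed by 0.24 without passing (limma, adjusted p = 0.0713). Their relative CMTM3 rose 1.66-fold (limma, adjusted p = 0.00423).

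On the interferon-gamma axis that induces CD274, 1 of 10 tested genes rose and 1 fell. JAK2, a kinase of the interferon-gamma receptor that lies 322 kb from CD274, had 6.40 and 6.69 FPKM at 30 Gy and 4.14 and 4.09 at 0 Gy (1.59-fold; limma, adjusted p = 0.0118). STAT3 had 19.4 and 19.6 FPKM at 30 Gy and 24.1 and 27 at 0 Gy (limma, adjusted p = 0.0324). IRF1, a factor that carries the signal to the CD274 promoter, had a change of 0.01 (limma, adjusted p = 0.929). Of 10 regulators of CD274 protein turnover, HIP1R, which sends the protein to lysosomes, fell 1.37-fold (limma, adjusted p = 0.0273) and 0 rose. Of 12 damage and stress regulators of NKG2D ligands 3 rose and 0 fell. These were CHEK1, the kinase downstream of ATR, 1.84-fold, EZH2 1.37-fold and HDAC3 1.25-fold (limma, adjusted p = 0.0140, 0.0225 and 0.0379), while ATM and ATR changed by 0.18 and 0.04 (limma, adjusted p = 0.268 and 0.757).

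**Figure D4:**
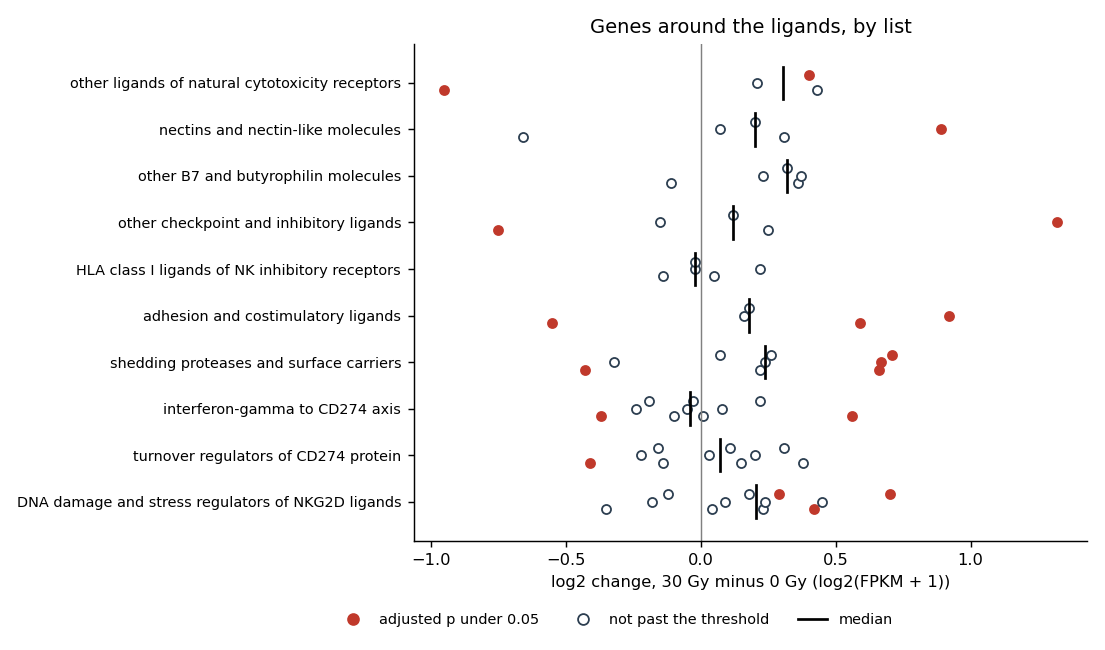
Log2 change (30 Gy minus 0 Gy) of each tested gene on 10 related lists, filled where called, with the list's median as a bar. Called genes lie on either side of 0, from LGALS3 at -0.95 to NT5E at 1.32, and the medians of the lists run from -0.04 to 0.32.

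Markers of lymphocytes, macrophages and endothelial cells were low in both groups. The 10 T and NK cell markers summed to 0.504 and 0.532 FPKM at 30 Gy and 0.456 and 0.438 at 0 Gy, with CD2, CD3D and CD3E at 0, and 0 of 12 genes for lymphocyte receptors and their adaptor HCST passed the filter. Macrophage markers summed to 1.83 and 1.86 FPKM at 30 Gy and 1.77 and 1.67 at 0 Gy, with AIF1, TYROBP and FCER1G at 0, and endothelial markers to under 0.3 FPKM in each library. Of 7 fibroblast markers DCN was at 0, and 2 were tested without passing. COL1A2, COL3A1 and PDGFRA were below the filter and near 0. COL1A2 had 0 and 1 reads at 30 Gy and 0 and 0 at 0 Gy. COL3A1 had 4 and 6 at 30 Gy and 1 and 1 at 0 Gy. PDGFRA had 13 and 30 at 30 Gy and 13 and 5 at 0 Gy. COL1A1 had 76.3 and 69.6 FPKM at 30 Gy and 62.1 and 62.4 at 0 Gy, above each ligand gene, and PDGFRB 1.46 and 1.51 at 30 Gy and 0.652 and 0.717 at 0 Gy (limma, adjusted p = 0.0795 and 0.0535). PDGFRB passed the filter through the 30 Gy libraries alone. LUM, below the filter, had 0.895 and 1.32 FPKM at 30 Gy and 0.0191 and 0.0978 at 0 Gy, on 43 and 63 reads at 30 Gy and 1 and 5 at 0 Gy. The list summed to 78.8 and 72.6 FPKM at 30 Gy and 62.9 and 63.2 at 0 Gy, nearly all of it COL1A1. Its part in the ligand results was not tested. Of 7 squamous and basal markers KRT5, KRT6A and DSG3 were at 0 in the 4 libraries, and KRT14 and SOX2 were below the filter. KRT14 had 0 and 0.11 FPKM at 30 Gy and 0.0504 and 0 at 0 Gy. SOX2 had 0.548 and 0.475 at 30 Gy and 0.252 and 0.0936 at 0 Gy. PKP1 had 16.2 and 14.8 FPKM at 30 Gy and 17.6 and 18.3 at 0 Gy, and TP63 3.34 and 3.19 at 30 Gy and 3.95 and 4.14 at 0 Gy. Of 5 simple epithelial markers KRT7 rose (221 and 201 FPKM at 30 Gy, 96.2 and 95.3 at 0 Gy) and KRT19 fell (92.8 and 84.1 at 30 Gy, 165 and 159 at 0 Gy; limma, adjusted p = 0.00232 and 0.00424), and their part in the ligand results was not tested.

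**Figure D5:**
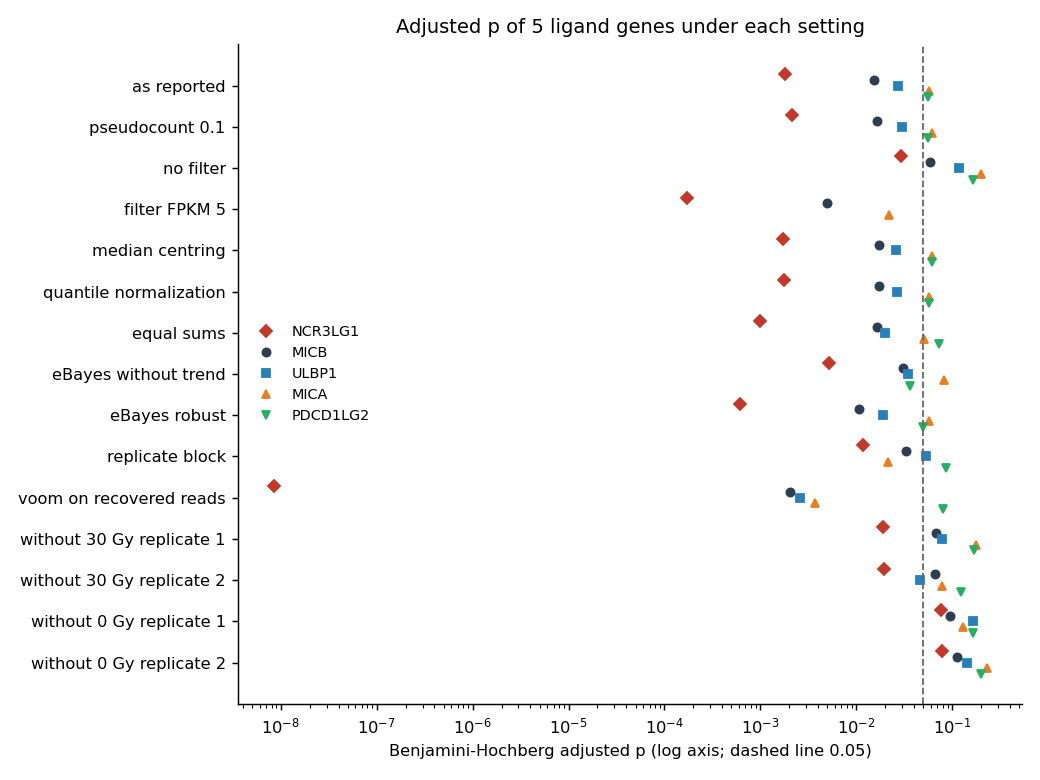
Benjamini-Hochberg adjusted p on a log axis for 5 ligand genes under the reported setting and 14 alternatives, with a dashed line at 0.05; a gene below the FPKM 5 filter has no point there. NCR3LG1 lies left of the line except where a 0 Gy library was left out, and MICB and ULBP1 cross it when most single libraries are left out. The fits with a library left out cannot decide a call.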

How the data were processed

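The authors deposited 1 table of FPKM values for 58735 genes in 4 libraries, with gene positions and lengths, per the file headers. The submitters' processing notes name the build hg38 and the sources used here give no aligner, counter or annotation. All 58735 gene identifiers and positions matched GENCODE release 29 (GRCh38). Multiplied by gene length, 100% of the deposited values above 0 fell on whole multiples of 1 step per library (tolerance 0.001), and these multiples are the recovered reads. Their totals were 15920861 and 15979341 at 30 Gy and 17261121 and 16773381 at 0 Gy; they serve for depth, counting intervals and voom.

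limma 3.58.1 in R 4.3.3 (lmFit, eBayes with trend) was run on log2(FPKM + 1), a scale that understates the change of low genes, without further scaling or covariates, with 2 residual and 2.98 prior degrees of freedom. An exact permutation test of 2 against 2 cannot go below 0.333 and was not used. The fit was tested on simulated data. Every member is named; from each list up to 4 called genes by adjusted p, or the 2 most abundant; near each called member up to 4 called genes; and 3 genes of nearest pattern. Some genes that this rule names are not reported here. Others complete a count, share sequence with a member or have a role stated beside them, and those were chosen after their values were seen. The members, lists and tests were chosen with earlier results of these data known. Identities of coding sequences come from global alignment (Biopython 1.88).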

Additional observations from a re-analysis of the deposited data

How the results depend on the processing

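Fits were repeated under 14 alternatives: pseudocount 0.1, no filter, a filter at FPKM 5, 3 other scalings (median centring, quantile normalization, equal sums), eBayes without trend or robust, a replicate block, voom on recovered reads, and each library left out. Over all genes, 1442 were higher and 1212 lower at 30 Gy. Without a filter 352 were higher and 252 lower, and with voom 2050 were higher and 2177 lower. With single libraries left out, the counts ran from 0 to 484 higher and from 0 to 414 lower. Among the members 1 was higher and 2 were lower as reported. With eBayes without trend or robust, the filter at FPKM 5, the replicate block or voom 2 were higher, and without a filter 0. With the filter at FPKM 5, without a filter or with the replicate block 1 was lower, and single libraries left out gave 0 to 0 higher and 0 to 2 lower. Of the related genes 12 were higher and 6 lower as reported, 3 and 1 without a filter, 24 and 11 with voom, and 0 to 6 and 0 to 1 with single libraries left out. Fewer samples or, without a filter, more genes tested (30687) enter those fits by construction; the cause of the other shifts was not tested.

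NCR3LG1 fell in all 14 alternatives and passed in 12, with changes from -2.28 to -1.68. MICB kept its direction in 14 and passed in 9, and ULBP1 kept its direction in 13 and passed in 8, being below the filter at FPKM 5. MICA kept its direction in 14 and passed in 3. The alternatives counted include the fits with a library of either dose left out, which cannot decide a call, for the reason given for NCR3LG1. The direction of ULBP3 turned when a library was left out (-0.41 to 0.23), and so did that of CD276 (-0.03 to 0.13). No scaling moved the median of all genes by over 0.02. The replicate numbers are shared by the doses but nothing says that they pair cultures, and same-numbered libraries did not deviate together (r = -0.0263 across 13379 genes). With the replicate block 1 member was lower and 2 were higher, since ULBP1 missed the threshold (limma, adjusted p = 0.0535) and MICA passed it (0.0217). ULBP1, ULBP2, ULBP3, CD274 and PDCD1LG2 rest on 49 to 215 reads a library, which limits their precision.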

Other observations

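HLA-DRA, an HLA class II chain gene 929 kb from MICB and chosen here after its values were seen, had 1.66 and 1.72 FPKM at 30 Gy and 5.70 and 4.78 FPKM at 0 Gy. The groups did not overlap, and it stood 3.10-fold lower at 30 Gy (log2 change -1.21 ± 0.11, SE; limma, adjusted p = 0.00517), while HLA-B had 38 and 34.0 FPKM at 30 Gy and 39.0 and 40.1 at 0 Gy and did not pass (limma, adjusted p = 0.258). The summed FPKM of the 10 ligand genes was 99.7 and 94.5 at 30 Gy and 91.9 and 94.9 at 0 Gy, so the groups overlapped for the sum.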
